A study of Mus musculus with 5 samples.

Results

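The genes described here are 4 inhibitors of cytokine signalling of the SOCS family (Cish, Socs1, Socs2 and Socs3), the kinase genes Pim1 and Pim2, and Bcl3, all known to be switched on by STAT3 or STAT5. The rule names the genes and uses no measured value, although earlier results of these data were known when it was written, and every probe set annotated to them was taken. This gave 7 genes of the 8251 named on the array, with 10 probe sets: Socs3, Pim1 and Pim2 had 2 each and the others 1. All 10 passed the filter on low signal that left 7453 of 12422 probe sets for testing.

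The arrays measured RNA of CD8 T cells from OT-1 animals, C57BL/6 mice aged 6 to 8 weeks with a transgenic T cell receptor that recognises an ovalbumin peptide on H-2Kb. The groups were stimulation with antigen, B7-1 and murine IL-21 for 72 h (1 array), the same for 48 h (2 arrays), and antigen with B7-1 and no IL-21 for 48 h (2 arrays). All cultures, those without IL-21 included, held human recombinant IL-2, and all cells were CD44-low CD8 cells enriched from lymph nodes by removal of other cells and stimulated on coated latex beads. The labels call the samples biological replicates without saying whether mice, pools or cultures were separate, and the p-values therefore reflect only how far these samples differ, which may be technical. At 72 h only cells with IL-21 were analysed here, and time and IL-21 cannot be told apart there. Both comparisons below use the 48 h arrays with IL-21.

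Cytokines such as IL-2 and IL-21 bind receptors that share the common gamma chain and activate JAK kinases, which phosphorylate STAT proteins. IL-2 acts mainly through STAT5 and IL-21 mainly through STAT3. STAT dimers enter the nucleus and induce, among others, the SOCS genes, whose products bind receptors or JAKs through an SH2 domain and recruit a ubiquitin ligase through the SOCS box, which closes a negative feedback loop. PIM kinases are serine/threonine kinases that promote survival and growth and are regulated mostly by their abundance. Bcl3 is an atypical member of the I-kappa-B family that works in the nucleus with NF-kappa-B dimers.

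The promoter windows of 3 members are shown because these genes carried the main patterns below, a low level at 72 h for Cish and a difference between replicate numbers for Socs3 and Bcl3. Each runs from 250 bases before to 50 bases after the annotated start of transcription, 5′ to 3′ on the strand of the gene, from RefSeq on build GRCm38.p6. The Cish window is chr9:107296409-107296708 (plus strand), that of Socs3 chr11:117969317-117969616 (minus strand) and that of Bcl3 chr7:19822706-19823005 (minus strand). Capitals mark matches to the STAT consensus TTCNNNGAA in Cish and Socs3, and to the NF-kappa-B type motif (GGG and CC with any 5 bases between them, on either strand) in Bcl3.
Cish: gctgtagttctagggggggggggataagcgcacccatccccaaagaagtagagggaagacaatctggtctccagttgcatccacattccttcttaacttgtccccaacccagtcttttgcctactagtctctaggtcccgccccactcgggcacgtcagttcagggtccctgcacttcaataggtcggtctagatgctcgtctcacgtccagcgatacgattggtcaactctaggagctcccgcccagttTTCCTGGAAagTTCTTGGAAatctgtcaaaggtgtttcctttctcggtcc
Socs3: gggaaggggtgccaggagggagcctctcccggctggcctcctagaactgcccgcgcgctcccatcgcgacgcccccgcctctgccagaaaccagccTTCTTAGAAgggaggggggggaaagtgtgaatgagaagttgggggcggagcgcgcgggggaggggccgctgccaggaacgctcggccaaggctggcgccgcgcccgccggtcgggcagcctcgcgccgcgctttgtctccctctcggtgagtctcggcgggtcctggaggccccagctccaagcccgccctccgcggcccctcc
Bcl3: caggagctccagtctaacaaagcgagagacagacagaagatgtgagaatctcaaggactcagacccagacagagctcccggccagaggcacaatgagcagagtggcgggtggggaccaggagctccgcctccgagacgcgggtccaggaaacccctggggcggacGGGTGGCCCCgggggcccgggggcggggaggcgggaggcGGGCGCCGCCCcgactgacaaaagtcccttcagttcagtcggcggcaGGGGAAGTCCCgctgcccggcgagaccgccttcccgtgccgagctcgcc

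The Cish window held 2 copies of TTCNNNGAA, TTCCTGGAA and TTCTTGGAA, separated by 2 bases, with the earlier copy beginning at the annotated start base. The Socs3 window held 1 copy, TTCTTAGAA, whose first base lay 154 bases before the start. The other 5 windows of members, for Socs1, Pim1 (2 starts), Pim2 and Bcl3, held none, and Socs2 had no entry. TTCNNNGAA reads the same on both strands and was present in 8.29% of 32817 promoter windows of this length, and 0.457% held at least 2 copies. The NF-kappa-B type motif was present in 5 of the 7 windows and in 50.8% of all windows. The Bcl3 window held 5 matches, in 3 blocks, and the last block, GGGGAAGTCC with GGGAAGTCCC, began 1 base after the annotated start. A match is a description of letters and no measure of binding.

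**Figure D1:**
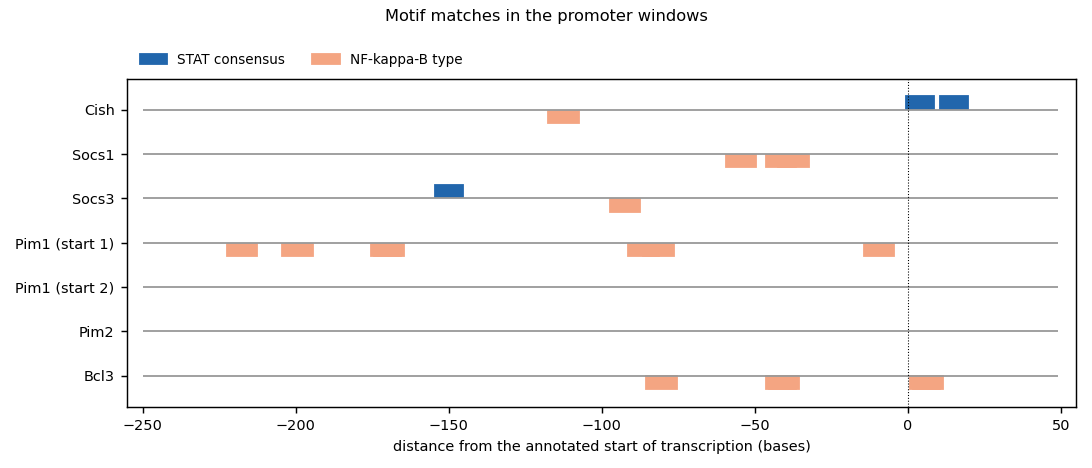
Motif matches in the 7 promoter windows of 6 members, by distance in bases from the annotated start of transcription. Blue boxes mark TTCNNNGAA and orange boxes the NF-kappa-B type motif on either strand. The 2 STAT consensus matches of Cish lie at its start and the single match of Socs3 lies 154 bases before its start.

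The arrays differed in overall signal before scaling. The trimmed mean signal was 65.9 at 72 h, 105 and 106 at 48 h with IL-21 and 75.4 and 65.3 at 48 h without it, so quantile-normalised values were used for all tests, and the level given for a probe set is its normalised signal, which includes an offset of 1.53 units. The 3' to 5' signal ratio, a measure of RNA integrity, was 0.886 to 1.03 in the beta-actin controls and 0.796 to 0.877 in the Gapdh controls. Of 10 markers of CD8 T cells 9 were on the array, and their summed signal was 8540 at 72 h, 5910 and 6466 at 48 h with IL-21, and 5774 and 5878 without it. The probe set of Cd8a lay between 401 and 753 and that of Cd3e between 1091 and 1650, while a probe set of the B cell gene Ighm (93583_s_at) lay between 295 and 868. Markers of other cells were mixed, with the myeloid genes Lyz2 between 1.8 and 3.0, Cd14 between 38.1 and 60.6 and Itgax between 12.7 and 41.3, and the NK cell genes Ncr1 between 2.0 and 10.2 and Klrc1 between 22.1 and 252.7. Markers of the labelled cell type were thus present, and those of other cells were not all absent.

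The comparison of 72 h with 48 h, both with IL-21, asked how the cells differed between the time points. Cish and Socs2, both closely linked to STAT5, were lower at 72 h, and they were the only members that passed the test. Socs3 and Bcl3 had their highest values at 72 h, but neither passed, and their arrays lay far apart within each 48 h group. Socs1, Pim1 and Pim2 did not pass in either direction. In limma, 2 of the 10 probe sets were called at an adjusted p under 0.05, both lower, and 2 had an unadjusted p under 0.05, where 11.2% of the 7453 probe sets tested were called in either direction, 7.12% lower and 4.04% higher, and 27.3% had an unadjusted p under 0.05. Of all calls 36.2% were higher, against 18% with arrays centred on medians, 4.71% in the deposited scaling and 49% after scaling on hybridisation controls. In those scalings the median of all probe sets moved to -0.17, -0.58 and 0.10. The median log2 difference of the 10 was -0.02, and that of all probe sets tested was -0.01. The lone 72 h array has no replicate, and the test assumes that it varies like the 48 h groups.

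Cish encodes CIS, a feedback inhibitor induced by IL-2 that in CD8 T cells of mice is also known to restrain signalling from the T cell receptor. Its normalised signal was 55.02 at 72 h, 245 and 159 at 48 h with IL-21, and 214 and 208 at 48 h without it. The 72 h array was below all 4 arrays at 48 h, and the 48 h groups overlapped. Cish fell by 1.84 on the log2 scale at 72 h (SE 0.29, adjusted p = 0.0187 in limma), which is 3.59-fold lower. The 95% interval ran from -2.55 to -1.13. In the deposited, unscaled values the signal was 46.1 at 72 h, 311 and 204 at 48 h with IL-21, and 199 and 169 without it.

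Socs2, whose product acts on growth hormone and other STAT5 pathways, was also lowest on the 72 h array. Its normalised signal was 77.6 at 72 h, 319 and 233 at 48 h with IL-21, and 266 and 214 at 48 h without it. The 72 h array was below all 4 arrays at 48 h, and the 48 h groups overlapped. Socs2 fell by 1.81 (log2, SE 0.26, adjusted p = 0.0163 in limma), which is 3.51-fold lower, with a 95% interval from -2.46 to -1.16. In the 7453 probe sets as a whole 33.8% were lower on the 72 h array than on every 48 h array. The falls of both genes had the same sign in all 15 alternative settings, between -2.41 and -1.41 for Cish and between -2.44 and -1.49 for Socs2, and passed in 12 of them. They did not pass without a variance trend (adjusted p = 0.0671 for Cish and 0.0636 for Socs2 in limma), nor without either 48 h array with IL-21. Without the replicate 1 array of that group the differences were -1.53 and -1.59 (adjusted p = 0.0845 for each in limma), and without replicate 2 they were -2.15 and -2.04 (adjusted p = 0.0595 for each in limma). Fewer cells with these transcripts and less RNA per cell cannot be told apart in bulk samples.

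Socs3 encodes the inhibitor that binds gp130 and related receptors and limits STAT3 signalling. Its probe set 92232_at had a normalised signal of 193 at 72 h, 12.3 and 82.3 at 48 h with IL-21, and 13.6 and 118 at 48 h without it. The 72 h array was the highest, but in each 48 h group the replicate 1 array was low and the replicate 2 array high. The log2 difference at 72 h was 2.60 (SE 1.49, adjusted p = 0.326 in limma), with a 95% interval from -1.03 to 6.23. The other probe set, 162206_f_at, whose suffix marks probes that can match related sequences, had 123 at 72 h, 26.1 and 56.2 with IL-21 at 48 h, and 26.8 and 88.3 without it. Its difference was 1.68 (SE 0.76, adjusted p = 0.224 in limma). Both probe sets ordered the 5 arrays alike.

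Bcl3 showed the same split between replicate numbers with a wider spread. Its normalised signal was 310 at 72 h, 9.86 and 135 at 48 h with IL-21, and 10.2 and 131 at 48 h without it. The 2 low arrays were the replicate 1 arrays of the 48 h groups, where the signal lay at the 33.7th and 34.3rd percentile of all probe sets of its array, against the 80.5th and 79.9th on the replicate 2 arrays and the 91.5th at 72 h. The log2 difference at 72 h was 3.09 (SE 1.88, adjusted p = 0.355 in limma), with a 95% interval from -1.499 to 7.67. Against the replicate 1 array with IL-21 alone it was 4.97 and against the replicate 2 array alone 1.198. For 92232_at of Socs3 the corresponding differences were 3.97 and 1.23. Detection calls were not among the files, so whether the lowest Bcl3 and Socs3 signals differ from background was not tested.

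Socs1 encodes a strong inhibitor of JAK kinases. Its normalised signal was 275 at 72 h, 189 and 411 at 48 h with IL-21, and 327 and 362 at 48 h without it. The 72 h value lay within the range of the 48 h arrays, and the difference was -0.02 (log2, SE 0.43, adjusted p = 0.979 in limma), with a 95% interval from -1.08 to 1.03. That interval still holds changes of up to about the size seen between the 48 h arrays with IL-21.

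Both PIM kinase genes had 2 probe sets, and none of them passed the test. For Pim1 the probe set 104533_at had a normalised signal of 499 at 72 h, 679 and 619 at 48 h with IL-21, and 576 and 509 at 48 h without it. The 72 h array was the lowest by a small margin, with a log2 difference of -0.38 (SE 0.16, adjusted p = 0.200 in limma). The second probe set, 99384_at, lay between 46.5 and 54.4 on all 5 arrays and differed by -0.02 (SE 0.26). For Pim2 the probe set 101926_at had 828 at 72 h, 983 and 888 at 48 h with IL-21, and 1012 and 768 at 48 h without it. It differed by -0.17 (log2, SE 0.20, adjusted p = 0.634 in limma). The 72 h array was below both 48 h arrays with IL-21 and above 1 of those without it. The second Pim2 probe set, 161233_at, was dim, with 10.99 at 72 h, 6.80 and 16.3 with IL-21 at 48 h, and 18.1 and 25.3 without it. It differed by 0.06 (SE 0.66).

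**Figure D2:**
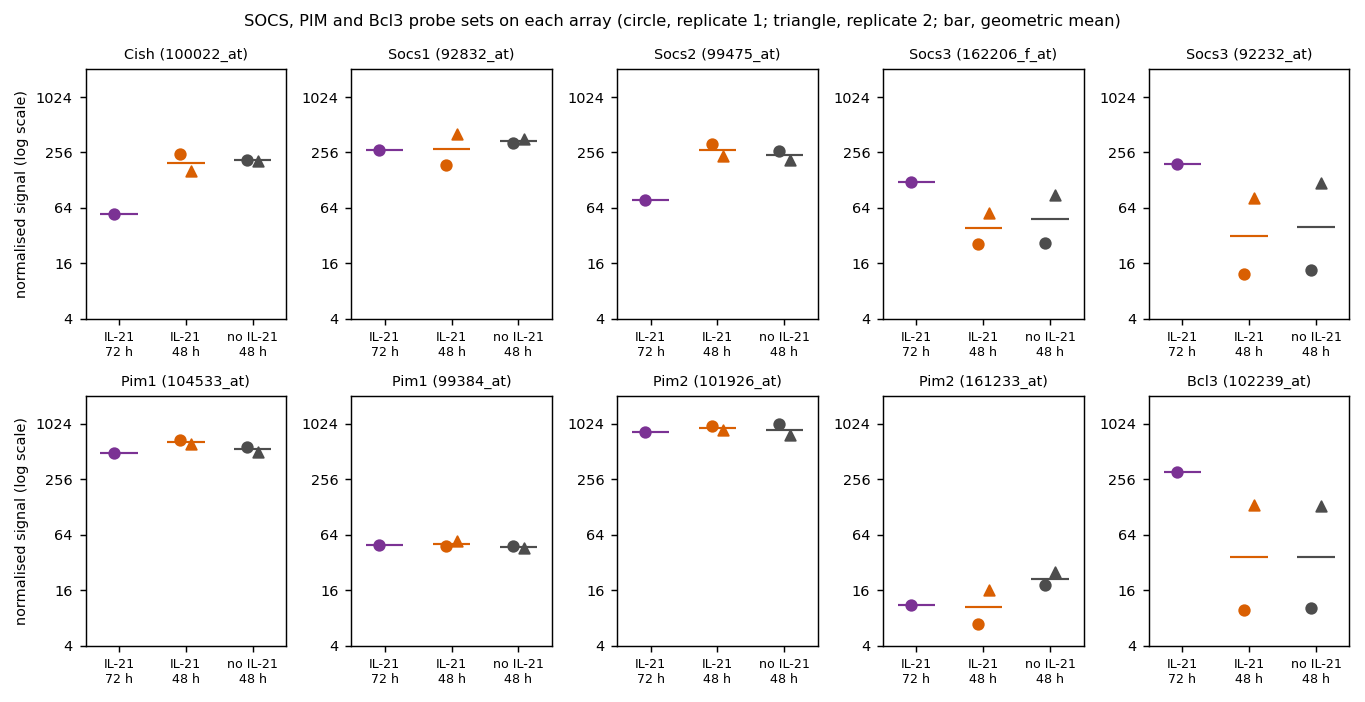
Normalised signal of the 10 probe sets on each of the 5 arrays, on a log axis, with circles for replicate 1, triangles for replicate 2 and bars for the geometric mean of the group. Cish and Socs2 are lowest on the 72 h array (55.02 and 77.6), and Socs3 and Bcl3 are low on both replicate 1 arrays at 48 h.

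The comparison with and without IL-21 at 48 h asked what IL-21 added to antigen, B7-1 and IL-2. None of the 10 probe sets passed the test. In limma 0 of 10 were called at an adjusted p under 0.05, where 0% of the 7453 probe sets were called, and 0 of 10 had an unadjusted p under 0.05, which 327 of all probe sets (4.39%) reached. By sign 4 of the 10 were higher and 6 lower with IL-21, and the median log2 difference was -0.05, against -0.01 for all probe sets tested. The adjusted p of the members lay between 0.967 and 1. The 2 groups did not overlap for 2 of the 10 probe sets, and for 33.8% of all probe sets tested.

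The Pim1 probe set 104533_at was 1 of these 2. It averaged 649 ± 42.3 with IL-21 and 542 ± 46.9 without it (normalised signal, SD, n = 2 each), a log2 difference of 0.26 (SE 0.13, adjusted p = 0.967 in limma) with an interval from -0.06 to 0.58. The difference was 0.24 between the arrays numbered replicate 1 and 0.28 between those numbered replicate 2. The probe set 99384_at averaged 51.2 ± 4.52 with IL-21 and 47.5 ± 1.37 without it, a log2 difference of 0.10 (SE 0.21). The unscaled signal was higher on the arrays with IL-21. In the deposited scaling 104533_at was called higher (0.86, adjusted p = 0.0447 in limma), and the median of all probe sets was also shifted by 0.57.

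The other non-overlapping probe set was 161233_at of Pim2, lower with IL-21 by 1.03 on the log2 scale (SE 0.54, adjusted p = 0.967 in limma). The brighter Pim2 probe set, 101926_at, had the opposite sign at 0.08 (SE 0.16), with 935 ± 67.1 with IL-21 and 890 ± 173 without it (normalised signal, SD, n = 2 each). The probe sets of Pim2 therefore disagreed, and the one that separated the groups had a signal of 25.3 or less on every array.

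The SOCS genes differed between the 48 h groups by less than between the 2 arrays with IL-21. For Cish and Socs1 the groups differed by more than the 2 arrays without IL-21, which lay 0.04 and 0.15 apart (log2). Cish averaged 202 ± 60.4 with IL-21 and 211 ± 4.05 without it (normalised signal, SD, n = 2 each), a log2 difference of -0.10 with an interval from -0.67 to 0.48. Socs2 averaged 276 ± 61.0 with IL-21 and 240 ± 36.7 without it, a difference of 0.20 with an interval from -0.33 to 0.72. Socs1 averaged 300.1 ± 157 with IL-21 and 344 ± 25.3 without it, a difference of -0.30 with an interval from -1.16 to 0.56. In the quantile-normalised values these intervals exclude a change of 2-fold in either direction for Cish and Socs2 but not for Socs1. Across 16 alternative settings the differences ran from -0.41 to 0.46 for Cish and from -0.03 to 0.76 for Socs2. Whether 2-fold stays excluded in each setting was not examined. For Socs1 the difference was -0.79 within replicate 1 and 0.18 within replicate 2, and for Cish it was 0.19 and -0.39, so neither gene kept its sign.

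For Socs3 and Bcl3 the spread within groups left the effect of IL-21 unmeasured by the group test. The difference was -0.33 for 92232_at of Socs3, with an interval from -3.29 to 2.64, and -0.34 for 162206_f_at, with an interval from -1.86 to 1.18. For Bcl3 it was -0.00, with an interval from -3.74 to 3.74. Between arrays of the same replicate number the Bcl3 difference was -0.05 for replicate 1 and 0.05 for replicate 2. For 92232_at of Socs3 these differences were -0.14 and -0.52, and for 162206_f_at -0.03 and -0.65. The labels do not say that the numbers pair the cultures.

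**Figure D3:**
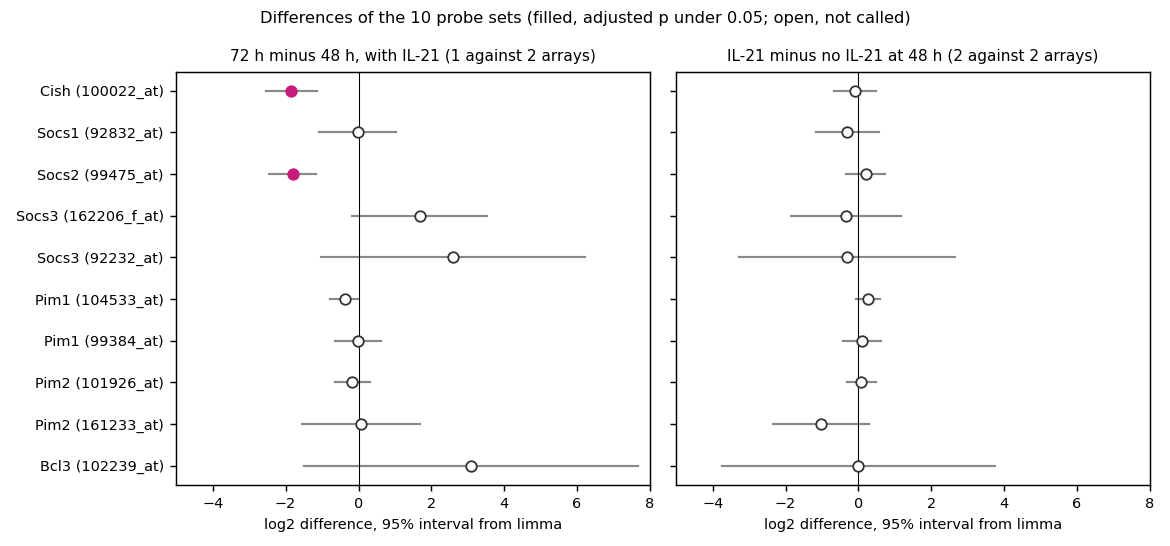
Log2 differences of the 10 probe sets with 95% intervals from limma, at left for 72 h minus 48 h with IL-21 and at right for IL-21 minus no IL-21 at 48 h. Filled points passed an adjusted p of 0.05, which were Cish (-1.84) and Socs2 (-1.81) at 72 h. Socs3 and Bcl3 have the widest intervals.

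The difference between replicate numbers in Socs3 and Bcl3 was examined after their values were seen and is a description. On the replicate 1 arrays with and without IL-21 Bcl3 lay at the 33.7th and 34.3rd percentile of the probe sets of the array. The Socs3 probe set 92232_at lay at the 37.9th and 39.6th. Both passed the filter through their mean over all arrays. Their ratios therefore rest on dim signals that were not tested against background, and their size is uncertain. The measured ratio of replicate 2 to replicate 1 for Bcl3 was 13.7 with IL-21 and 12.8 without it. For 92232_at of Socs3 the ratios were 6.67 and 8.69, and for 162206_f_at 2.15 and 3.30. A ratio of at least 4 in both groups was seen in 14 of 7453 probe sets (0.188%), and of at least 2 in 70 (0.939%). The reverse, replicate 1 at least 4-fold over replicate 2 in both groups, was seen in 6 probe sets (0.0805%). The dim probe set 161233_at of Pim2 had ratios of 2.40 with IL-21 and 1.40 without it. With IL-21 Socs1 was 2.17-fold higher in replicate 2 and without it 1.11-fold higher, while Cish and Socs2 were lower in replicate 2 in both groups, by 0.62 and 0.45 on the log2 scale with IL-21 and by 0.04 and 0.31 without it.

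The named probe sets that shared the difference of at least 4-fold, besides Socs3 and Bcl3, were those of S100a6, Serpinf1, Lgals3, Pltp, Adam19, Ctla2b, Klrd1, Gadd45g, Flot1 and 2810025M15Rik. Lgals3 encodes galectin-3 and Klrd1 the receptor chain CD94. Of the 14 probe sets, 12 (85.7%) had their highest value on the 72 h array, while 30.4% of all probe sets did. Socs3 and Bcl3, whose values prompted the search, were among the 12. The filter used the mean over all arrays. A probe set dim on both replicate 1 arrays passes it more readily when high at 72 h, so these shares cannot be compared. On the arrays numbered replicate 2 the overall signal was no constant mark, since the trimmed mean was 106 with IL-21 and 65.3 without it, against 105 and 75.4 on those numbered replicate 1.

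Markers of other cells also differed between the numbers. The summed signal of the 4 NK cell markers on the array (5 probe sets, 1 past the filter) was 296 at 72 h, 54.4 and 110 at 48 h with IL-21 for replicates 1 and 2, and 61.0 and 85.0 without it. Klrc1, which activated CD8 T cells also express, had 252.7 at 72 h, 22.1 and 83.8 at 48 h with IL-21, and 25.6 and 42.0 without it, while Ncr1 stayed at 10.2 or below. The summed signal of the 7 B cell markers (25 probe sets, 7 past the filter) was 1773 at 72 h, 1191 and 839 at 48 h with IL-21, and 1187 and 718 without it. That of the 12 myeloid and dendritic cell markers (16 probe sets, 7 past the filter) was 375 at 72 h, 373 and 267 with IL-21 at 48 h, and 432 and 373 without it. The B cell sum was highest at 72 h and rested mostly on the Ighm probe sets 93583_s_at and 93584_at, with 868 and 626 there. Other B cell markers were mixed. Cd79a had 17.7 at 72 h and 12.9 to 34.4 at 48 h, and Cd79b had 33.6 at 72 h and 7.1 to 29.8 at 48 h. B cell and myeloid sums were lower on the replicate 2 than on the replicate 1 array of each 48 h group, but single markers did not all go this way. Cd74 had 97.3 and 42.0 with IL-21 for replicates 1 and 2, and 155.7 and 64.8 without it. Csf1r (161832_r_at) was higher in replicate 2, with 25.4 and 30.2 with IL-21 and 18.7 and 37.2 without it. Those of 4 CD4 and regulatory T cell markers (5 probe sets, 2 past the filter) were 91.3 at 72 h, 55.6 and 42.4 with IL-21 at 48 h, and 84.0 and 57.2 without it. Those of 5 erythroid, platelet and stromal markers (7 probe sets, 4 past the filter) were 317 at 72 h, 303 and 217 with IL-21, and 297 and 261 without it. The part of these cells in the Socs3 and Bcl3 values was not tested.

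**Figure D4:**
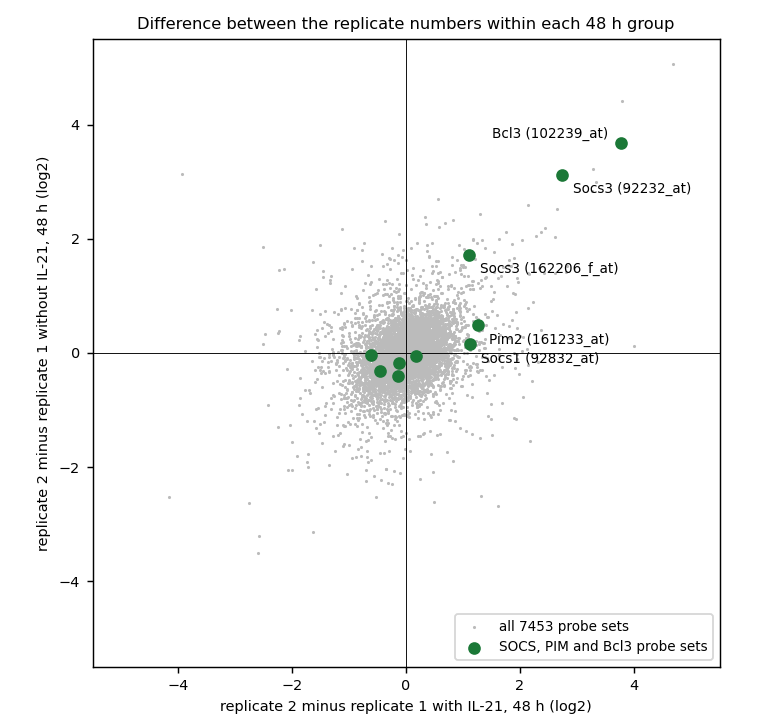
Log2 difference between replicate 2 and replicate 1 at 48 h, with IL-21 on the x axis and without it on the y axis, for all 7453 probe sets (grey) and the 10 probe sets of the SOCS, PIM and Bcl3 genes (green). Bcl3 (3.77 and 3.68) and 92232_at of Socs3 (2.74 and 3.12) lie at the upper right, with low replicate 1 signals, and the other members lie nearer to 0.

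Some genes outside the members had closely similar profiles over the 5 arrays, measured as the root mean square distance between log2 values centred on their own mean. The nearest to Cish were Ppid (0.12), Ifrd2 (0.12) and Arpp19 (0.13), and the nearest to Socs2 were Trpm7 (0.07), Arpp19 (0.09) and Anks3 (0.10), where Cish and Socs2 themselves had an SD of 0.87 and 0.80. The normalised signal of Ifrd2 was 115 at 72 h, 462 and 363 at 48 h with IL-21, and 392 on both arrays without it. The nearest to Bcl3 were Pltp (0.25), Serpinf1 (0.28) and Lgals3 (0.36), and the nearest to 162206_f_at of Socs3, the one with the higher mean log2 signal, were Rab5b (0.11), Fam189b (0.17) and Npdc1 (0.18), against an SD of 2.32 for Bcl3 and 1.00 for Socs3. Those nearest to Socs1 were Nedd4, Kank3 and Eloc, and those nearest to Pim1 were Wbp11, Wdr61 and Syngr2. Those nearest to Pim2 were Arpp19 (by another probe set), Spag5 and Calm4. The distances for Socs1, Pim1 and Pim2 were all 0.09 or less. The probe sets of Arpp19 disagreed. The one near Cish and Socs2 had a normalised signal of 5.14 at 72 h and 15.01 to 19.71 at 48 h. The one near Pim2 had 26.64 at 72 h and 24.64 to 33.84 at 48 h. The genes named for Socs2 were dim, between 5.14 and 23.74 on every array. With 5 arrays such likeness is a description only.

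The genes around the members were read from 6 lists. They held 148 genes on the array other than the members, of which 129 passed the filter. At 72 h 18 of these 129 genes (14.0%) were called, 7 higher and 11 lower, beside the 11.2% of all probe sets, and at 48 h 0 were called. Each gene was represented by its brightest probe set, and a gene could be in several lists.

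Receptors, JAKs, STATs and other inhibitors of the pathway gave 30 tested genes, 2 of them called higher and 0 lower at 72 h. Their median log2 difference was 0.17, against -0.01 for all probe sets tested. Il2rb, the receptor beta chain for IL-2 and IL-15, rose, with a normalised signal of 457 at 72 h against 202 at 48 h with IL-21 (1.18, SE 0.23, adjusted p = 0.0295 in limma). Jak1, the kinase that binds this chain, rose with 399 at 72 h against 216 at 48 h (0.88, SE 0.18, adjusted p = 0.0336 in limma). Stat3 (0.87) and Stat4 (0.83) did not pass. At 48 h the smallest p values belonged to the ubiquitin ligase gene Cbl (0.58), Stam2 (-0.41), Stat6 (-0.30) and the IL-2 receptor alpha chain Il2ra (-0.62), with none called of 30 and a median of -0.03.

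Of 21 other STAT5 target genes, 3 were called lower and 0 higher at 72 h, with a median of 0.03. They were Lta, the cytokine lymphotoxin alpha (-3.74), Dusp6, a phosphatase that limits ERK signalling (-2.26), and the growth regulator Myc (-1.17). A second probe set of Lta differed by 0.07 and did not pass. The survival gene Mcl1 (0.73) did not pass. At 48 h Tnfrsf18 (-0.38), Ccnd2, which encodes cyclin D2 (0.72), Tnfrsf4 (-0.36) and Ctla4 (-0.38) had the smallest p, none called of 21.

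Of 30 other STAT3 target genes, 2 were called higher and 3 lower at 72 h. Their median was 0.11. Irf4, a transcription factor induced by the antigen receptor, fell most clearly, with 346 at 72 h against 1932 at 48 h with IL-21 (-2.48, SE 0.12, adjusted p = 0.00678 in limma). Ier3, an early response gene (1.999), and Ets1, a T cell transcription factor (1.22), rose, although a second probe set of Ets1 (0.85) did not pass. Myc and Cdc25a, a phosphatase that activates cyclin-dependent kinases (-1.08, named after its value was seen), fell. At 48 h none was called, and Birc5 (0.47), Muc1 (-0.80), Rora (-1.01) and Ier3 (-0.51) had the smallest p.

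Of 26 NF-kappa-B partners and targets, 2 were called higher and 3 lower at 72 h. Their median was -0.01. The chemokine genes Ccl3 (-2.90) and Ccl4 (-2.45) and the cytokine gene Tnf (-2.56) fell, while Tnfaip3, which encodes the NF-kappa-B inhibitor A20 (1.81), and Traf1, a TNF receptor adaptor (1.36, named after its value was seen), rose. Of the NF-kappa-B subunit genes in the list, Nfkb2, Rela and Relb were tested and not called, while Nfkb1 and Rel were not tested. At 48 h none was called, and Tnfaip3 (-0.58), Birc2 (-0.40), Ikbkg (-0.32) and Relb (-0.27) had the smallest p. A second probe set of Ikbkg had the opposite sign (0.14).

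Of 24 PIM relatives, substrates and partners, 1 was called higher and 4 lower at 72 h. Their median was -0.26. The chemokine receptor gene Cxcr4 rose (2.98, with a normalised signal of 91.5 at 72 h against 11.6 at 48 h), and Myc, the transcription factor gene Nfatc1 (-0.84), Ybx1 (-0.42) and Cdc25a fell. At 48 h Ybx1 (0.34), Cdkn1a, which encodes p21 (-0.84), the chaperone gene Hsp90aa1 (0.87) and Bad (0.74) had the smallest p and none was called. A second probe set of Bad had the opposite sign (-0.26). Of 10 partners of the SOCS box, 1 was called at 72 h, Cul2, a scaffold of ubiquitin ligases (-0.93), while Nedd8 (-0.30), Rnf7 (-0.44) and Wsb2 (0.36) did not pass and the median was -0.28. At 48 h Wsb1 (0.68), Vhl (-0.63), Asb3 (-0.37) and Eloc (-0.28) had the smallest p, none called. At 48 h the medians were -0.13 for the STAT5, 0.03 for the STAT3, -0.16 for the NF-kappa-B, -0.08 for the PIM and -0.15 for the SOCS box list. In limma the adjusted p of the called genes ran from 0.00678 to 0.0458, and the 24 named at 48 h had values between 0.967 and 0.985.

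**Figure D5:**
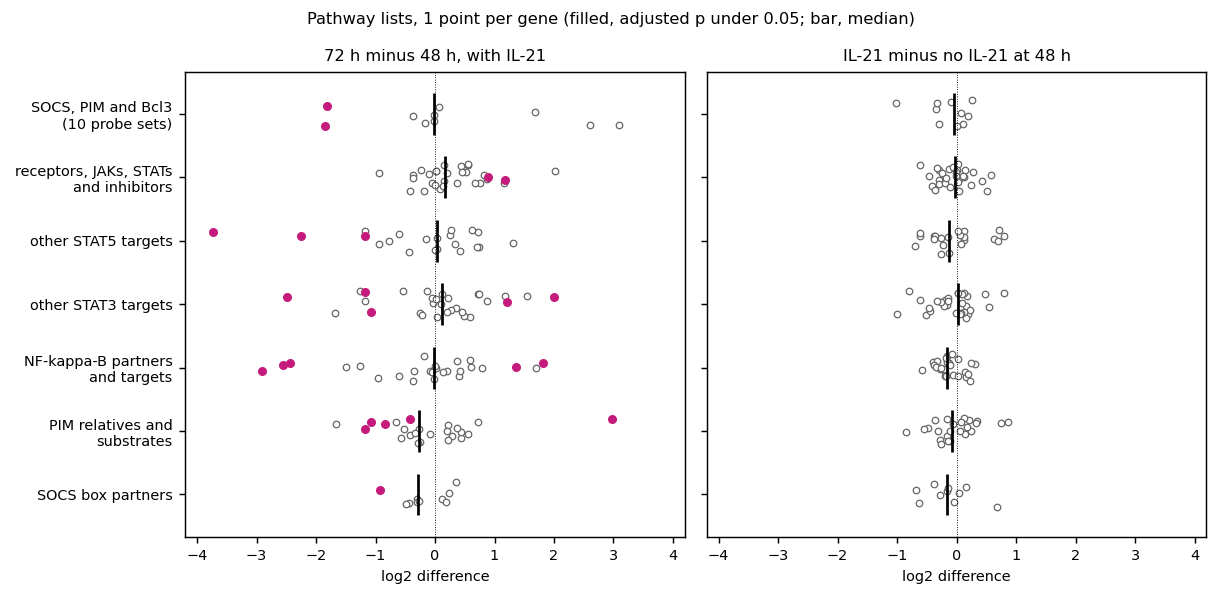
Log2 difference of each tested gene of the 6 lists and of the 10 probe sets of the members, at left for 72 h minus 48 h with IL-21 and at right for IL-21 minus no IL-21 at 48 h. Filled points passed an adjusted p of 0.05 and bars are medians. Genes of each list lie on both sides of 0, and called genes appear only in the 72 h panel.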

How the data were processed

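Total RNA was labelled with biotin and hybridised to Affymetrix mouse arrays, 1 per sample. The deposited table holds 1 linear intensity per probe set and array, and the submitters' processing notes name MAS5 for it. Not given in the sources used here are its software version, scaling target and detection calls. Columns were matched to samples by name and groups came from the titles.

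After removal of controls, 12422 probe sets remained. The platform annotation gave 10833 of them 1 gene name, 396 several and 1193 none. Names were updated through Entrez identifiers to the GRCm38.p6 gene table, with 10817 matched. Before log2 and quantile normalisation each value received an offset of 1.53 units (the 10th percentile over the table), which shrinks differences at low signal, and each direction is relative to the typical probe set. Probe sets with a mean above the 40th percentile were kept (7453).

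Limma 3.58.1 in R 4.3.3 fitted the 3 group means to all 5 arrays (2 residual degrees of freedom), with a variance trend, two-sided tests and p-values adjusted by Benjamini-Hochberg across all 7453. A run on simulated data with independent noise checked only that added differences were recovered on average. It held no effect shared by a replicate number, and no error rate from it is given here. Alternatives covered the offset, scaling, filter, trend, replicate number, probe set averaging and leaving out arrays. The number of arrays limits precision.

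The members and lists were chosen with earlier results of these data known. All member probe sets are named, with the 4 genes of smallest p per list and comparison and the 3 nearest profiles per member. Promoter sequences came from RefSeq and matched 6 of 7 members by symbol.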

Additional observations from a re-analysis of the deposited data

How the results depend on the processing

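The 48 h comparison called 0 member probe sets in all alternatives except the deposited scaling (1, Pim1), and 0 of all probe sets except in the deposited scaling (680) and with the replicate number as a block (11). At 72 h the 2 calls of members became 4 in the deposited scaling, which added Pim1 104533_at (-1.09) and Pim2 101926_at (-0.87), and 0 without a variance trend, and leaving out 1 array at a time gave 0 to 2. The calls over all probe sets, 832, became 2125, 0 and 0 to 453 in these settings. Both counts of 0 came from leaving out a 48 h array with IL-21 or the trend, where 1697, 1749 and 1843 probe sets still had an unadjusted p under 0.05 in limma. Without replicate 1 or 2 of the arrays without IL-21, 450 and 453 were called. The share of calls that were higher was 36.2%, against 18% with arrays centred on medians, 4.71% in the deposited scaling, 49% after scaling on the hybridisation controls and 38.1% on trimmed means.

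The replicate numbers were shared between groups but not tied to a day, mouse or batch by any label. Replicate differences with and without IL-21 correlated over probe sets (r = 0.361, n = 7453), with only 2 pairs. With the replicate number as a block, 6 member probe sets were called at 72 h, 3 higher and 3 lower, and 1860 of all. The added ones were Bcl3 (4.95), Socs3 92232_at (4.06) and 162206_f_at (2.38), and Pim1 104533_at (-0.46), while Socs1 became 0.30 and Pim1 99384_at 0.0069. This fit sets the 72 h array, labelled replicate 1, against the low replicate 1 arrays.

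Signs of members that were not called changed with several settings, and the cause was not tested. At 48 h Bcl3 was 0.011 and 0.013 with offsets of 16 and 32, 0.045 with arrays centred on medians and 0.026 on trimmed means. In the deposited scaling Bcl3 was 0.58, Cish 0.46, Socs1 0.28 and Socs3 0.26 (92232_at) and 0.23 (162206_f_at). After scaling on the controls Pim2 101926_at was -0.081, Pim1 99384_at -0.041 and Socs2 -0.0037, and averaging its probe sets gave -0.47 for Pim2. At 72 h Pim2 161233_at was -0.0064 and -0.0098 with these offsets and -0.27 in the deposited scaling, and Pim1 99384_at was 0.082 on trimmed means and 0.11 on the controls. When each array was left out, the 48 h differences ranged from -1.89 to 1.89 for Bcl3, -1.89 to 1.23 for Socs3 92232_at, -1.20 to 0.52 for 162206_f_at, -0.86 to 0.26 for Socs1, -0.41 to 0.21 for Cish, -0.12 to 0.28 for Pim2 101926_at and -0.032 to 0.42 for Socs2. At 72 h they ranged from -0.57 to 0.69 for Pim2 161233_at, -0.58 to 0.54 for Socs1 and -0.11 to 0.067 for Pim1 99384_at, and Socs3 and Bcl3 stayed positive.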
